A study of Homo sapiens with 32 samples.

Results

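The mRNAs described here come from 10 human genes whose transcripts belong to the non-ribosomal mRNAs with a 5' terminal oligopyrimidine (TOP) tract. They are EEF1A1, EEF1B2, EEF1D, EEF1G, EEF2, EIF4B, TPT1, GNB2L1, PABPC1 and NAP1L1, chosen by symbol with no threshold on their values but with earlier results of these data known, and all 10 were found among the 32738 gene entries of the deposited count table. Their usual short name, TOP mRNAs of translation elongation, covers the first 5 genes, which encode elongation factors; the other 5 encode an initiation factor, a poly(A)-binding protein, a ribosome-bound scaffold, a growth-associated protein and a histone chaperone. The cells were HEK293, an established line derived from human embryonic kidney, given 4-thiouracil, a uracil analogue with a sulphur atom that marks RNA made while it is present, with incubation times of 0, 5, 15 and 30 min. Each time had 2 cultures, labelled biological replicates, with 2 cDNA preparations per culture and 2 libraries per cDNA, and polyadenylated RNA is the molecule named for every library. The library titles begin with TTSeq, a name that the labels do not explain. The labels state neither whether marked RNA was enriched nor what was given to the 0 min cells. No genotype, transgene or other agent is named, so the 4 groups are described by incubation time alone.

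A TOP mRNA starts with a cytosine that is followed directly by a run of pyrimidines. This start lets the mTORC1 kinase complex, partly through the RNA-binding protein LARP1, switch the translation of these mRNAs on and off together, and it is shared by mRNAs for ribosomal proteins and for many factors that work with the ribosome. In growing cells TOP mRNAs are long-lived and abundant, and HEK293 cells are a common model for their control.

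Annotated starts in RefSeq (GRCh38.p14) show which of the 10 genes carry the tract that gives the class its name. A tract was counted as a C followed by at least 4 bases that are each C or T, read on the sense strand from the annotated first base. Starts were matched for 8 of the 10 genes, and 7 of these 8 (87.5%) held a tract. Of all 35116 RefSeq promoters searched, each scored singly, 4.07% held one. Among tested genes with a matched start, scored like the 10 by any of their starts, 7.92% did. The 10 genes were listed as TOP mRNAs, so their high share follows from that choice. Each line gives 10 bases before the annotated first base and 20 bases from it on, 5' to 3', with capitals for the longest tract that begins within 5 bases of it. EEF1D and PABPC1 are named here without a sequence.
EEF1A1 (chr6:73521013-73521042, minus strand): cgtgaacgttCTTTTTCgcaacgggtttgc
EEF1B2, second annotated start (chr2:206159885-206159914, plus strand): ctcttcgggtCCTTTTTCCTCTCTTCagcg
EEF1B2, first annotated start (chr2:206159599-206159628, plus strand): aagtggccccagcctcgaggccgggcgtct
EEF1G (chr11:62573872-62573901, minus strand): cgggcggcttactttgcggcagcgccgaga
EEF2 (chr19:3985444-3985473, minus strand): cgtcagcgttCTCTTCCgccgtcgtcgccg
EIF4B (chr12:53006446-53006475, plus strand): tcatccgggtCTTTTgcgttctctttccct
TPT1 (chr13:45341164-45341193, minus strand): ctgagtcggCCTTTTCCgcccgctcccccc
GNB2L1, listed as RACK1 (chr5:181243887-181243916, minus strand): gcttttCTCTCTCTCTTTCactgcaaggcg
NAP1L1 (chr12:76084666-76084695, minus strand): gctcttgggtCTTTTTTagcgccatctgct

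The tracts differed in length among the genes. From the annotated first base, EIF4B had 5 pyrimidines, EEF1A1, EEF2, TPT1 and NAP1L1 had 7 each, GNB2L1 had 9 and the second start of EEF1B2 had 16. In TPT1 the run began 1 base upstream of the annotated start and came to 8 bases. In GNB2L1 the unbroken run began 9 bases upstream and came to 18, of which the capitals mark the 13 that begin inside the 5-base window. The annotated EEF1G start and the first EEF1B2 start held no such run within 5 bases. For comparison, 48 of 67 cytosolic ribosomal protein genes with a matched start (71.6%) and 13 of 17 other non-ribosomal TOP genes (76.5%) held a tract, against 6 of 67 mitochondrial ribosomal protein genes (8.96%). A match describes the printed letters and is not evidence of the start used in these cells.

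Total counts lay between 188686 and 381471 per library and between 776871 and 1396056 per culture. Of 9 entries for embryonic kidney line markers none was at 0 in all cultures, with the neuronal cadherin CDH2 at a mean of 251 CPM, while PAX2 had 5 counts in all. Blood cell markers were at 0 throughout for 5 of 7 genes, fibroblast markers for 3 of 6 and liver markers for 2 of 4. The summed liver markers had 2, 7, 17 and 42 counts at 0, 5, 15 and 30 min, nearly all of them APOA1, an apolipoprotein, which rose at 30 min against 0 min on 39 against 2 counts (adjusted p = 0.0189). The part of these markers in the results was not tested. Of 7 kidney line markers tested 3 rose and 1 fell at 5 min against 0 min, with a median log2 fold change of -0.54 (0.15 with total counts). Their summed level lay between 161 and 239 CPM at 0 min, 463 and 493 CPM after 5 min, 323 and 401 CPM after 15 min and 359 and 360 CPM after 30 min. Most of that sum was CDH2, which averaged 103 CPM at 0 min and 383, 268.8 and 249 CPM after 5, 15 and 30 min, while the keratin KRT8 averaged 28.6, 9.93, 6.29 and 6.59 CPM. Levels are library-size-scaled counts after TMM scaling (CPM), which sets the bulk of genes level between cultures. TMM factors were 0.686 and 0.640 in the 0 min cultures and 1.10 to 1.22 in the later ones, so a level says how an mRNA stood relative to other mRNAs and not how many molecules a cell held. In such bulk RNA, fewer cells making an mRNA and less of it per cell cannot be told apart.

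Most of the 10 mRNAs made up a smaller part of the counted RNA after every incubation than at 0 min. Together they took 1.49% ± 0.054 of all counts at 0 min, 0.618% ± 0.083 after 5 min, 0.626% ± 0.054 after 15 min and 0.531% ± 0.035 after 30 min (SD, n = 2 cultures each). All 6 later cultures, at 0.507% to 0.677%, lay below both 0 min cultures, at 1.45% and 1.53%. GNB2L1 and TPT1 together supplied 74.4% ± 1.77 of the counts of the 10 genes at 0 min, 59.3% ± 1.83 after 5 min, 61.4% ± 3.46 after 15 min and 56.3% ± 0.377 after 30 min. EIF4B supplied 0.348% ± 0.0050 of them at 0 min and 3.88% ± 0.722, 3.67% ± 0.374 and 3.64% ± 0.171 at 5, 15 and 30 min. PABPC1 supplied 2.00% ± 0.090 at 0 min and 8.91% ± 0.355, 7.07% ± 1.78 and 9.26% ± 0.882 after 5, 15 and 30 min.

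Gene by gene, 8 of the 10 mRNAs fell, EIF4B rose and PABPC1 did not pass the test in each of the comparisons of 5, 15 and 30 min with 0 min. The test was edgeR's quasi-likelihood F test with Benjamini-Hochberg adjustment over 10439 genes, at an adjusted p of 0.05. Among all genes tested, 26% fell and 28.7% rose at 5 min, 24.6% fell and 29.8% rose at 15 min, and 23.8% fell and 32.1% rose at 30 min. In each of these comparisons the 2 later cultures lay wholly below or wholly above the 2 cultures of 0 min for 9 of the 10 genes, where 73.7%, 76% and 77.6% of all genes tested showed such a separation at 5, 15 and 30 min. The median log2 fold change over the 10 genes was -1.75 at 5 min, -1.85 at 15 min and -1.95 at 30 min, beside 0.10, 0.19 and 0.35 over all genes tested. The 3 comparisons use the same 0 min cultures and are therefore not independent of each other.

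**Figure D1:**
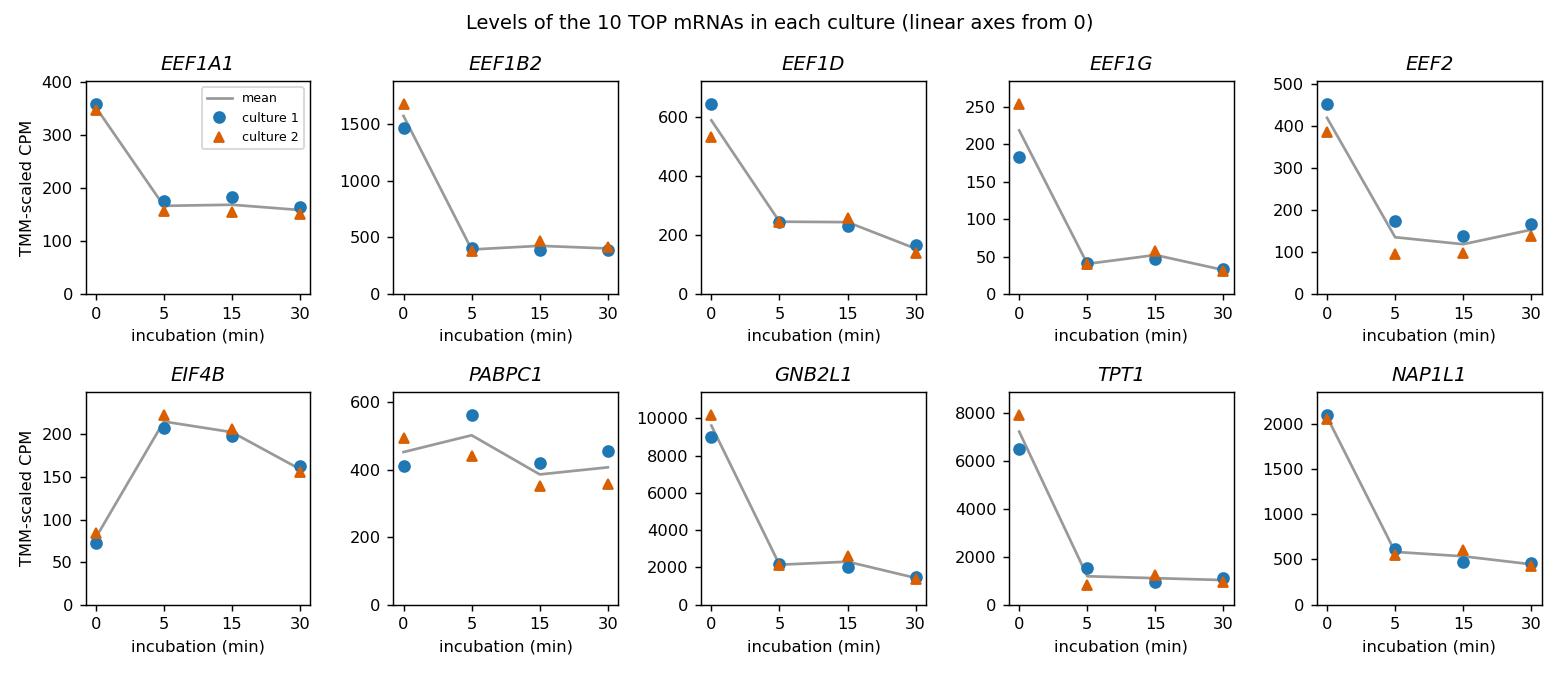
Levels of the 10 mRNAs by incubation time (x axis, 0, 5, 15 and 30 min, evenly spaced) in TMM-scaled CPM (y axis, linear from 0, with its own scale per gene). Circles are culture 1, triangles culture 2 and the grey line their mean; 8 genes drop between 0 and 5 min and stay low, EIF4B is higher at every later time and the PABPC1 cultures overlap.

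Scaling moved the comparisons with 0 min for all genes. With total counts as the only scaling, the median over all genes was 0.83, 0.95 and 1.21 (log2) at 5, 15 and 30 min, and the calls were 1456 lower and 4452 higher, 1319 lower and 4880 higher, and 1343 lower and 5598 higher. With TMM these splits were 2712 lower and 2998 higher, 2573 lower and 3110 higher, and 2485 lower and 3352 higher. Of the 8 falls, 7 passed under either scaling at all 3 times. EEF1A1 did not pass with total counts, and PABPC1 then rose. The median over the 10 genes with total counts was -1.02, -1.08 and -1.08.

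The eEF1 complex brings aminoacyl-tRNA to the ribosome. Its GTP-binding subunit eEF1A, encoded by EEF1A1, carries the tRNA, and the eEF1B subunits recharge it with GTP. EEF1A1 had 358 and 346 CPM in the 0 min cultures, 175 and 157 at 5 min, 182 and 154 at 15 min, and 165 and 152 at 30 min. The later cultures lay close together, all well below both 0 min cultures. EEF1A1 fell at each time, with log2 fold changes of -1.09 at 5 min (SE 0.18, adjusted p = 4.92e-06), -1.06 at 15 min (SE 0.18, adjusted p = 5.33e-06) and -1.15 at 30 min (SE 0.18, adjusted p = 1.31e-06). With total counts its log2 fold changes were -0.36, -0.29 and -0.28 (adjusted p = 0.104, 0.173 and 0.174). The EEF1A1 values rest on 150 to 299 counts per culture. GENCODE v29 names 39 pseudogene copies of EEF1A1, and the deposited table has 0 entries for them, so that reads shared with copies could be lost or misplaced; their part in these values was not tested.

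EEF1B2 and EEF1D encode the guanine nucleotide exchange subunits of eEF1B, and EEF1G encodes the subunit that holds the complex together. EEF1B2 had 1463 and 1677 CPM at 0 min, 402 and 384 at 5 min, 385 and 465 at 15 min, and 388 and 416 at 30 min. It fell at 5, 15 and 30 min by log2 fold changes of -2.0 (SE 0.18, adjusted p = 4.37e-11), -1.88 and -1.96, with no overlap between the later cultures and those of 0 min. EEF1D had 644 and 532 CPM at 0 min, 245 and 245 at 5 min, 231 and 256 at 15 min, and 168 and 140 at 30 min. Its levels stood on 3 steps, high at 0 min, alike at 5 and 15 min and lower again at 30 min. EEF1D fell against 0 min, by log2 fold changes of -1.26 (SE 0.18, adjusted p = 2.33e-07) at 5 min, -1.27 and -1.94. EEF1G had 183 and 254 CPM at 0 min, 40.9 and 39.9 at 5 min, 46.7 and 57.6 at 15 min, and 33.3 and 31.1 at 30 min. The 0 min cultures of EEF1G differed more from each other than any later pair did, and every later culture was below both. On 35 to 85 counts per later culture, the log2 fold changes of EEF1G were -2.43 (SE 0.26, adjusted p = 7.39e-10), -2.06 and -2.75.

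EEF2 encodes the GTPase that moves the ribosome along by 1 codon after each peptide bond. It had 454 and 387 CPM at 0 min, 175 and 95.9 at 5 min, 139 and 98.9 at 15 min, and 168 and 139 at 30 min. Culture 2 was the lower at every time and most so at 5 min, where the cDNA preparations of culture 2 gave 111 and 81.0 CPM and those of culture 1 gave 160 and 192 CPM. EEF2 fell, with log2 fold changes of -1.67 (SE 0.22, adjusted p = 6.99e-08), -1.82 and -1.45 at 5, 15 and 30 min.

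EIF4B and PABPC1 act when a ribosome is loaded on an mRNA. EIF4B encodes an RNA-binding cofactor of the helicase eIF4A, and PABPC1 encodes the main cytoplasmic poly(A)-binding protein. EIF4B had 73.0 and 84.1 CPM at 0 min, 207 and 223 at 5 min, 198 and 207 at 15 min, and 162 and 156 at 30 min. All 6 later cultures were above both 0 min cultures, and those of 30 min were below those of 5 and 15 min. EIF4B rose by 1.46 at 5 min (SE 0.21, adjusted p = 2.60e-07), 1.37 at 15 min (SE 0.21, adjusted p = 7.51e-07) and 1.02 at 30 min (SE 0.21, adjusted p = 7.51e-05) on the log2 scale. With total counts these rises were 2.19, 2.14 and 1.89. PABPC1 had 411 and 494 CPM at 0 min, 563 and 441 at 5 min, 420 and 352 at 15 min, and 456 and 358 at 30 min. Its cultures overlapped between 0 min and every later time. The log2 fold changes of PABPC1 were 0.15 (SE 0.19, adjusted p = 0.527), -0.22 (SE 0.19, adjusted p = 0.319) and -0.15 (SE 0.19, adjusted p = 0.514). With total counts PABPC1 rose by 0.88, 0.55 and 0.73 (adjusted p = 4.52e-05, 0.00729 and 0.000456), so its direction depends on the scaling.

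**Figure D2:**
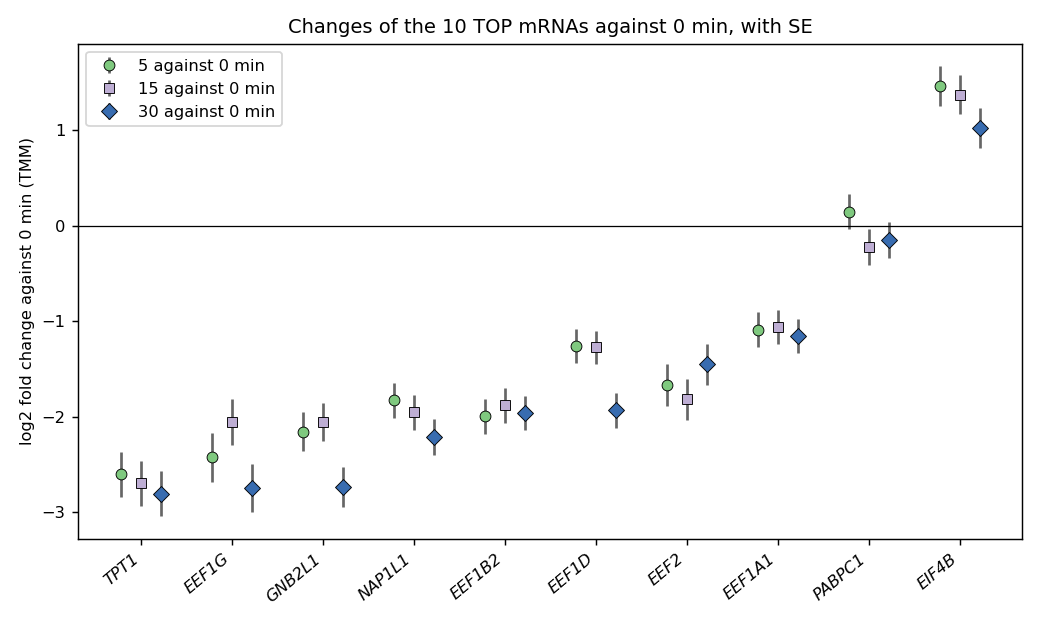
Log2 fold change of each mRNA against 0 min after TMM scaling (y axis), by gene in order of the change at 30 min (x axis), for 5, 15 and 30 min (circle, square, diamond). Bars are SE; 8 genes lie between -1.06 and -2.81, PABPC1 is near 0 and EIF4B lies between 1.02 and 1.46, and with total counts as the only scaling EEF1A1 does not pass and PABPC1 lies between 0.55 and 0.88.

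GNB2L1, the gene now called RACK1, encodes a scaffold protein on the small ribosomal subunit. It had 9015 and 10196 CPM at 0 min, 2182.3 and 2115 at 5 min, 2013 and 2606 at 15 min, and 1486 and 1392 at 30 min. The 30 min cultures were below all others and the 0 min cultures far above them. GNB2L1 fell, with log2 fold changes of -2.16 (SE 0.20, adjusted p = 7.65e-11), -2.06 and -2.74 at 5, 15 and 30 min. TPT1 encodes the translationally controlled tumour protein, a growth-associated protein long used as a model TOP mRNA. It had 6497 and 7920 CPM at 0 min, 1541 and 835 at 5 min, 957 and 1260 at 15 min, and 1127 and 933 at 30 min. The 5 min cultures of TPT1 were the most unequal of the later pairs, and both cDNA preparations of culture 1 (1726 and 1346 CPM) were above both of culture 2 (893 and 779 CPM). Its log2 fold changes at the 3 times that passed the test were -2.61 (SE 0.24, adjusted p = 3.39e-11), -2.70 and -2.81. NAP1L1 encodes a chaperone that carries histones to chromatin. It had 2100 and 2047 CPM at 0 min, 615 and 553 at 5 min, 467 and 603 at 15 min, and 463 and 431 at 30 min. NAP1L1 had log2 fold changes of -1.83 (SE 0.19, adjusted p = 3.44e-10), -1.95 and -2.21, all past the test, and all its later cultures were below those of 0 min.

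Ordered by the log2 fold change at 30 min against 0 min, the genes ran TPT1, EEF1G, GNB2L1, NAP1L1, EEF1B2, EEF1D, EEF2, EEF1A1, PABPC1 and EIF4B. TPT1, EEF1G and GNB2L1 differed from their neighbours among these 3 by 0.05 and 0.01, less than 1 combined SE. NAP1L1, EEF1B2 and EEF1D likewise lay within 1 combined SE of their neighbours in that trio. The steps on either side of PABPC1 were 1.00 from EEF1A1 and 1.17 to EIF4B, with combined SEs of 0.26 and 0.28. Within the eEF1 subunits, EEF1A1 had the smallest fall and EEF1G the largest at each later time, though EEF1A1 and EEF1D were within 1 combined SE at 5 and 15 min, 0.17 and 0.21 apart, and so were EEF1G and EEF1B2 at 15 min, 0.18 apart.

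Between the later times the 10 mRNAs moved less. In the comparison of 30 min with 5 min, EEF1D and GNB2L1 fell, 0 genes rose and 8 did not pass, where 6.52% of all genes tested fell and 5.88% rose (681 and 614 genes, and 320 and 759 with total counts). EEF1D fell by 0.67 (SE 0.18, adjusted p = 0.0125), and both its 30 min cultures were below both of 5 min. GNB2L1 fell by 0.58 (SE 0.20, adjusted p = 0.0483), also without overlap. The cultures of 5 of the 10 genes did not overlap, all with the 30 min pair lower, where 56.5% of all genes tested did not overlap. EIF4B was among these 5 with a log2 fold change of -0.44 (SE 0.18, adjusted p = 0.105), and so were NAP1L1 at -0.38 (SE 0.18, adjusted p = 0.180) and EEF1G at -0.32 (SE 0.28, adjusted p = 0.505). Neither fall passed when any 1 culture of 5 or 30 min was left out (adjusted p = 0.0582 and 0.0826 without culture 1 or 2 of 5 min and 0.0502 and 0.215 without culture 1 or 2 of 30 min for EEF1D, and 0.176, 0.159, 0.246 and 0.319 in the same order for GNB2L1), or with total counts (0.0527 and 0.0625). The replicate number as a block and 1 library per cDNA also ended the call of GNB2L1 (adjusted p = 0.0546 and 0.0841).

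In the comparison of 30 min with 15 min EEF1D and GNB2L1 again fell, where 2.78% of all genes tested fell and 2.26% rose (290 and 236 genes, and 203 and 314 with total counts). EEF1D fell by 0.66 (SE 0.18, adjusted p = 0.0225) and GNB2L1 by 0.68 (SE 0.20, adjusted p = 0.0338), while EEF1G had a log2 fold change of -0.69 (SE 0.26, adjusted p = 0.138). The 30 min pair was below the 15 min pair without overlap for 5 genes, where 50.4% of all genes tested did not overlap. Both calls were lost without culture 2 of 15 min (adjusted p = 0.224 for EEF1D and 0.193 for GNB2L1), without culture 1 of 30 min (0.0970 and 0.277) and without culture 2 of 30 min (0.343 and 0.334). EEF1D did not pass with total counts (adjusted p = 0.0593), and GNB2L1 did not pass when the other times were kept out of the fit (0.0558). In the comparison of 15 min with 5 min 0 of the 10 genes passed edgeR's test, 0 had an unadjusted p under 0.05 and 0 passed with DESeq2, where 0.517% of all genes tested fell and 1.03% rose (54 and 108 genes, and 36 and 130 with total counts). The log2 fold changes lay between -0.37 for PABPC1 (SE 0.18, adjusted p = 0.381) and 0.37 for EEF1G (SE 0.27, adjusted p = 0.598). The cultures of 15 and 5 min did not overlap for 3 of the 10 genes, where 44.9% of all genes tested did not overlap.

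Cytosolic ribosomal protein mRNAs are the best known TOP mRNAs, so each of the 10 was also counted per 1000 ribosomal protein counts of the same culture, a ratio that needs no scaling between cultures. Of 83 ribosomal protein genes, 80 fell and 0 rose at 5 min, with a median log2 fold change of -1.47 (-0.74 with total counts). At 30 min against 5 min 37 of the 83 fell and 1 rose, with a median of -0.55 (-0.41 with total counts). Of all genes tested 6.52% fell and 5.88% rose in that comparison. A ratio can therefore rise without a rise of the mRNA's own level. EEF1A1, for example, averaged 166 CPM at 5 min and 158 CPM at 30 min. The 10 mRNAs differed in this ratio. EIF4B had 0.267 ± 0.0077 counts per 1000 ribosomal protein counts at 0 min, 2.21 ± 0.332 after 5 min, 2.15 ± 0.30 after 15 min and 2.49 ± 0.083 after 30 min (SD, n = 2). PABPC1 had 1.54 ± 0.0028 at 0 min and 5.10 ± 0.389, 4.15 ± 1.20 and 6.33 ± 0.688 after 5, 15 and 30 min. Both ratios were higher in every later culture than in either 0 min culture. TPT1 had 24.5 ± 0.267 at 0 min and 11.9 ± 3.93, 11.6 ± 0.311 and 16 ± 1.14 after 5, 15 and 30 min. GNB2L1 had 32.7 ± 1.38 at 0 min and 22 ± 1.65, 24.2 ± 0.343 and 22.5 ± 0.360 after 5, 15 and 30 min. EEF1G had 0.738 ± 0.075 at 0 min and 0.413 ± 0.033, 0.548 ± 0.011 and 0.502 ± 0.0065 after 5, 15 and 30 min. These 3 ratios were lower in every later culture than in either 0 min culture. EEF1A1 ran the other way, with 1.21 ± 0.185 at 0 min and 1.69 ± 0.030, 1.81 ± 0.515 and 2.47 ± 0.0091 after 5, 15 and 30 min, all later cultures above both 0 min cultures. The other 4 genes had means on both sides of 0 min or cultures that overlapped it. EEF1B2 averaged 5.34 at 0 min and 4.02, 4.47 and 6.30 after 5, 15 and 30 min. NAP1L1 averaged 7.11 at 0 min and 5.95, 5.60 and 6.98 after 5, 15 and 30 min. EEF2 had its highest mean, 2.39, after 30 min, and EEF1D had its lowest, 2.03, at 0 min. An exact permutation test (two-sided, log2 ratio, 28 arrangements) set the 6 later cultures together against the 2 cultures of 0 min, a grouping chosen after the values were seen. The 6 genes whose cultures did not overlap each reached p = 0.0357, the smallest the exact permutation test can give, and 0.0595 after Benjamini-Hochberg adjustment over the 10 genes. In this grouping, which pools the later times, these p-values restate the lack of overlap and add no support to it. The other 4 had p between 0.143 and 0.821. The share of all genes tested whose cultures separate in this ratio is not given here. Whether the separation is particular to these genes was therefore not tested.

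**Figure D3:**
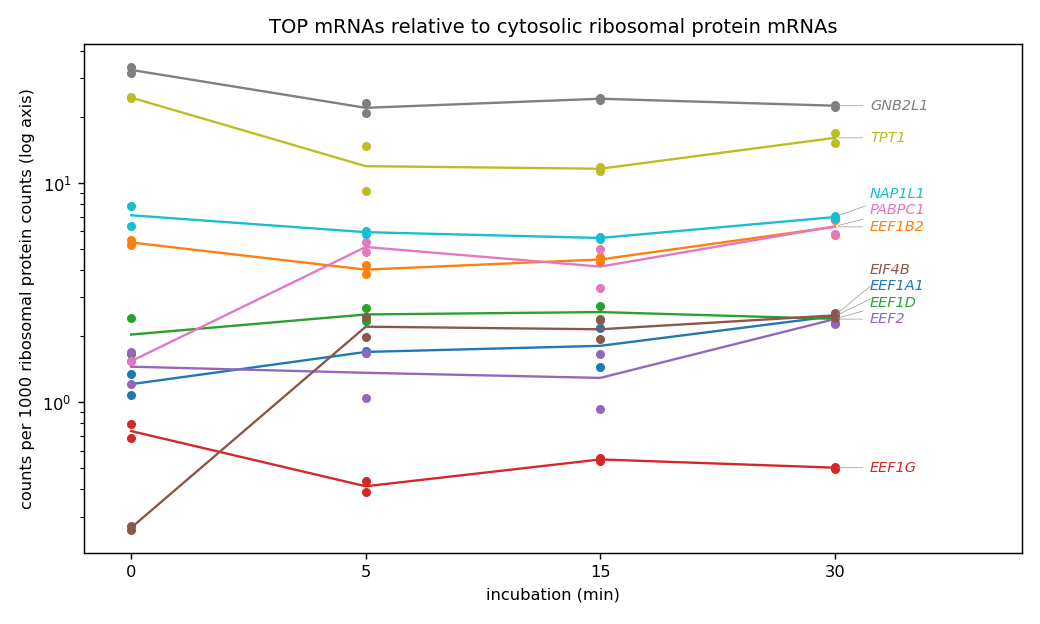
Counts of each mRNA per 1000 cytosolic ribosomal protein counts of the same culture (y axis, log scale) by incubation time (x axis, min, evenly spaced). Points are the 2 cultures of a time and lines join their means; EIF4B (0.267 at 0 min, 2.21 at 5 min) and PABPC1 (1.54 and 5.10) go up, while TPT1 (24.5 and 11.9), GNB2L1 (32.7 and 22) and EEF1G (0.738 and 0.413) go down.

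Of 23 other non-ribosomal TOP mRNAs, 15 fell and 1 rose at 5 min, with a median of -0.999 (-0.27 with total counts). NPM1, which encodes the nucleolar chaperone nucleophosmin, fell by 2.33 (SE 0.21), and NACA, of the nascent polypeptide-associated complex, fell by 2.16 (SE 0.20). CNBP, a nucleic acid-binding zinc finger protein, fell by 2.41 (SE 0.19). CCNI, which encodes cyclin I, rose by 1.07 (SE 0.23). At 30 min 15 of the 23 fell and 2 rose, with a median of -1.15 (-0.28 with total counts). Among those that rose was EIF4A2, an eIF4A helicase, by 1.38 (SE 0.20), and it also rose by 1.64 (SE 0.19) at 30 min against 5 min. Some TOP transcripts serve mainly as hosts of small nucleolar RNAs, which are cut from their introns. Of 7 such entries tested, 2 rose and 1 fell at 5 min, while 7 rose and 0 fell at 30 min, with ZFAS1 up by 1.61 (SE 0.19) and SNHG7 by 1.94 (SE 0.38). Mitochondrial ribosomal protein mRNAs, which are mostly without a TOP tract, also fell for 61 of 70 genes and rose for 2 at 5 min, with a median of -1.40 (-0.66 with total counts).

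Of 23 cap-binding and scanning factors, which work beside EIF4B in initiation, 13 fell, 1 rose and 9 did not pass at 5 min, with a median of -1.23 (-0.50 with total counts). EIF4A1, the helicase that EIF4B assists, fell by 1.84 (SE 0.19), and EIF1, which guards the choice of start codon, fell by 1.72 (SE 0.18). The 1 that rose was EIF4G3, a scaffold of the cap-binding complex, by 3.45 (SE 0.24). At 30 min 12 fell, 3 rose and 8 did not pass against 0 min, with a median of -0.91 that was -0.033 with total counts. EIF4A1 was then 0.89 (SE 0.19, adjusted p = 0.00131) and EIF1 0.81 (SE 0.18, adjusted p = 0.00226) higher on the log2 scale at 30 min than at 5 min.

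Of 16 other elongation and termination factors tested, 5 fell and 3 rose at 5 min, with a median of -0.29 that was 0.43 with total counts as the only scaling. EEF2K, the kinase that inactivates eEF2, rose by 3.36 (SE 0.50), and EEFSEC, the elongation factor for selenocysteine, rose by 2.77 (SE 0.33). Both started low, with EEF2K at 5.02 ± 3.72 CPM and EEFSEC at 19.3 ± 13.8 CPM at 0 min (SD, n = 2). DPH2, of the pathway that makes the diphthamide residue of eEF2, fell by 1.91 (SE 0.30). Of 11 tested relatives of the 10 genes by sequence or name, 4 fell and 2 rose at 5 min, with a median of -0.53 that was 0.20 with total counts. HBS1L, an eEF1A-like GTPase of ribosome rescue, rose by 0.90 (SE 0.19), and PABPN1, the nuclear poly(A)-binding protein, fell by 1.62 (SE 0.46). EEF1A2, the second gene for eEF1A, had 38 counts over all cultures and was not tested. Of 24 mTOR pathway and TOP-binding genes 8 rose and 5 fell at 5 min, with a median of -0.10 that was 0.62 with total counts. RPTOR and RICTOR, which define the 2 mTOR complexes, rose by 3.67 (SE 0.32) and 4.11 (SE 0.39). Their 0 min levels were low, at 15.2 ± 10.7 CPM for RPTOR and 5.89 ± 1.83 CPM for RICTOR (SD, n = 2). MLST8, a subunit of both complexes, fell by 2.22 (SE 0.62, adjusted p = 0.00275), and AKT1S1, an inhibitory partner of mTORC1, fell by 1.59 (SE 0.61, adjusted p = 0.0274). At 5 min MLST8 averaged 6.77 ± 6.26 CPM and AKT1S1 10.9 ± 9.43 CPM (SD, n = 2). LARP1 rose by 1.17 (SE 0.21), and SSB, the La protein, fell by 1.96 (SE 0.18).

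**Figure D4:**
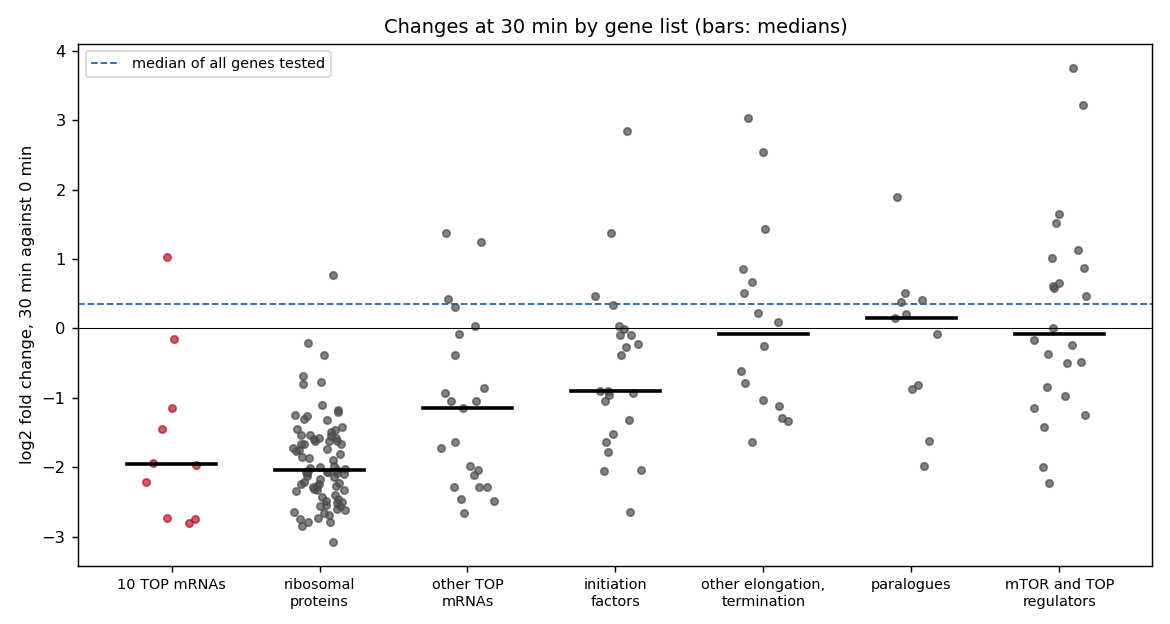
Log2 fold change at 30 min against 0 min (y axis, TMM scaling) of each tested gene in 7 lists (x axis), with the 10 TOP mRNAs in red. Black bars are list medians and the dashed line is the median of all genes tested (0.35); the bars stand at -1.95 for the 10 mRNAs, -2.05 for ribosomal proteins and -1.15 for other TOP mRNAs, and with total counts as the only scaling these are -1.08, -1.17 and -0.28 beside 1.21 for all genes tested.

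Genes with a tract at the annotated start that are neither ribosomal protein genes nor among the 10 were counted in the same way, with no test of the difference. There were 603 of them among the genes tested, of which 30.7% fell and 26.9% rose at 5 min. Among 7649 tested genes without one, 26.5% fell and 29% rose. At 30 min 27.9% of the 603 fell and 31% rose, against 24.6% and 31.8% of the 7649. Of the 7 genes among the 10 with a tract at a matched start, EIF4B rose and the others fell. EEF1G, with no tract at its annotated start, also fell, and EEF1D and PABPC1 had no matched start. The part of the tract in these changes was not tested.

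Gene span moved with the change at 5 min over all genes. Spans were those of GENCODE v29 and were matched for 9346 tested genes. Of 625 genes under 5 kb 56% fell and 1.28% rose, and of 3876 genes over 50 kb 9.18% fell and 52.5% rose. EEF1B2 spans 3.34 kb. TPT1 (7.90 kb), EEF1A1 (8.05 kb) and EEF2 (9.41 kb) fell in the class of 5 to 10 kb, where 52.0% of 861 genes fell and 4.41% rose. GNB2L1 (11.2 kb), EEF1G (14.5 kb) and EEF1D (19.8 kb) stood in that of 10 to 20 kb, where 43.3% of 1413 genes fell and 7.78% rose. EIF4B (36.1 kb), PABPC1 (37.0 kb) and NAP1L1 (48.4 kb) stood in that of 20 to 50 kb, where 30.0% of 2571 genes fell and 18.8% rose. At 5 min NAP1L1 fell, EIF4B rose and PABPC1 did not pass, in a class where genes went both ways. The part of span in the changes was not tested.

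**Figure D5:**
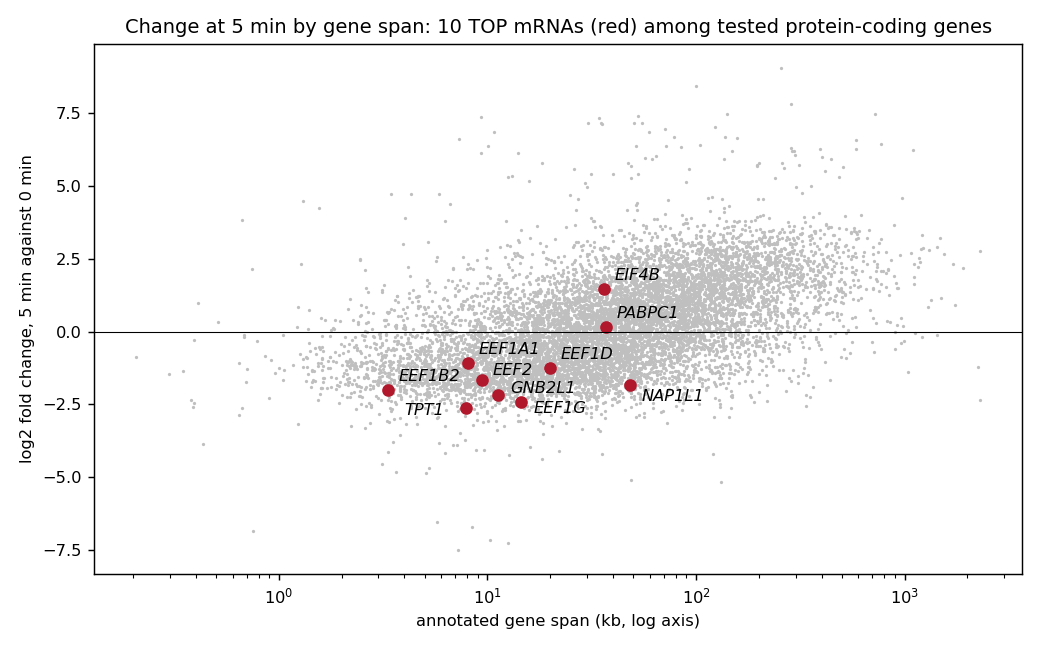
Log2 fold change at 5 min against 0 min (y axis, TMM scaling) against annotated gene span in kb (x axis, log scale) for the tested genes with a span (grey) and the 10 TOP mRNAs (red). The cloud slopes upward, with EIF4B at 36.1 kb (1.46), PABPC1 at 37.0 kb (0.15) and NAP1L1 at 48.4 kb (-1.83).

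Across the 8 cultures the log2 levels of 8 genes ran together, with Pearson r of 0.787 to 0.992 between any 2 of them. EIF4B ran against them (r = -0.944 to -0.767), and PABPC1 was at 0.126 to 0.332 with the 8 and at -0.05 with EIF4B. These values describe 8 points that fall into the 0 min pair and the rest, share their library depth and carry no test. Among 2340 genes with a mean of at least 100 CPM, those most like EEF1A1 were CHID1 (r = 0.992), PPP2R1A, SFT2D1, SDCBP and HDAC1. Those most like TPT1 were FAM136A (r = 0.995), LAPTM4A, NONO, RPL10 and GLO1. Those most like EIF4B were HTT (r = 0.995), CASK, MEF2C, GCFC2 and PCDH9. HTT averaged 34.1 CPM at 0 min, 154 after 5 min, 125 after 15 min and 98.4 after 30 min. It shares its order of times with EIF4B, which its choice by likeness over the same cultures favours. FAM136A averaged 523 CPM at 0 min, 161 after 5 min, 143 after 15 min and 148 after 30 min, and CHID1 221, 72.7, 70.6 and 62.5.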

How the data were processed

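Raw gene counts of 32 libraries were deposited by the authors as whole numbers in 1 table. Reads were aligned with STAR to hg19, per the submitters' processing notes; the version of STAR, the strand counted and the nature of a count (reads or molecules) are not given in the sources used here. Library columns were matched to samples by barcode; the tagmentation numbers of 4 libraries differ between header and labels, which changes no sum. Counts were summed over the 4 libraries of a culture (8 cultures).

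Times were compared with edgeR 4.0.16 in R 4.3.3 (two-sided quasi-likelihood F test, TMM scaling, genes kept by filterByExpr, all 8 cultures in 1 model with 4 residual degrees of freedom, Benjamini-Hochberg over 10439 genes at 0.05). Cultures of a time varied by 15.3% (biological coefficient of variation). Each SE is the absolute log2 fold change over the root of its F. With 2 cultures per time, and no statement that they were grown apart, p-values measure the spread between these samples only. In simulated counts for 5 min against 0 min (9931 genes tested), the test called 98.5% of simulated 4-fold changes, 49.3% of 2-fold and 11.9% of 1.5-fold ones, and 6 of its 112 calls were false. The simulation changed only 66, 67 and 67 genes by these folds, in random directions and with the same spread for all genes. In the data 26% of genes fell and 28.7% rose at 5 min, so the simulation does not show how the test fares under such a shift.

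Alternatives were RLE size factors, total counts, no filter, DESeq2 1.42.0, a replicate block, 1 library per cDNA, only the 2 times compared, each culture left out and a wider tract search. The 10 genes, the lists and the naming rule were chosen with earlier results of these data known. The rule names all 10 genes, and from each list the 2 most abundant tested genes and the 2 largest changes each way, of which a part is printed; likeness is Pearson r of log2 CPM (prior count 2). Promoter letters are RefSeq's (GRCh38.p14); no coordinate was converted to hg19. Members and lists were matched by symbol, so reads shared with near-identical copies are uncertain: GENCODE v29 names 14 pseudogenes for TPT1, 13 for PABPC1, 9 for EIF4B, 8 each for EEF1B2, EEF1D and EEF1G, 3 for NAP1L1 and 0 for EEF2 and GNB2L1. Genes that stand on more than 1 list include EIF4A2, EIF2S3, NAP1L4 and FAU.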

Additional observations from a re-analysis of the deposited data

How the results depend on the processing

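In the comparisons with 0 min, 8 genes fell and EIF4B rose under every alternative run, except that total counts as the only scaling gave 7 falls and 2 rises: EEF1A1 was lost, and PABPC1 was at 0.55 at 15 min and 0.73 at 30 min. That scaling also gave 1456 lower genes at 5 min, 1319 lower and 4880 higher at 15 min, and 1343 lower and 5598 higher at 30 min among all genes tested. When each culture was left out in turn, PABPC1 ranged from -0.0026 to 0.34 at 5 min and from -0.31 to 0.041 at 30 min; the other calls against 0 min held.

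For 30 against 5 min, the number of the 10 genes that fell was 2, and 0 with total counts, 1 with the replicate block, 1 with 1 library per cDNA and 0 to 2 with each culture left out; EIF4B passed with RLE size factors (adjusted p = 0.0353) and NAP1L1 with DESeq2 (adjusted p = 0.0344). Over all genes the lower calls were 1122 with RLE size factors, 320 with total counts, 414 without a filter and 166 to 857 with each culture left out, and the higher calls were 367 with DESeq2 and 305 to 770. For 30 against 15 min, the genes that fell were 1 with total counts, 1 with only the 2 times compared and 0 to 2 with each culture left out; the higher calls were 513 with only the 2 times compared, 111 with DESeq2 and 65 to 315 with each culture left out, and the lower calls 52 to 354. For 15 against 5 min, only the 2 times compared gave 87 lower and 171 higher calls, DESeq2 gave 63 higher, and leaving out each culture gave 0 to 113 lower and 61 to 161 higher.

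Signs changed only in values that passed no test. For 30 against 5 min these were EEF1B2 (-0.070 with RLE, -0.070 with DESeq2) and EEF1A1 (0.076 with total counts, 0.0096 without a filter, 0.0012 with only the 2 times), and with each culture left out EEF1A1 (-0.14 to 0.0062), EEF1B2 (-0.016 to 0.098), EEF2 (-0.18 to 0.67) and TPT1 (-0.57 to 0.30). For 15 against 5 min they were EEF1A1 (-0.0068 with RLE, -0.0023 with 1 library per cDNA, -0.0079 with DESeq2) and EEF1D (0.027 with total counts, 0.034 without a filter, 0.051 with 1 library per cDNA, 0.026 with only the 2 times), and with each culture left out EEF1A1 (-0.10 to 0.18), EEF1D (-0.047 to 0.067), EEF2 (-0.55 to 0.31), TPT1 (-0.46 to 0.40), GNB2L1 (-0.056 to 0.28) and NAP1L1 (-0.28 to 0.054). For 30 against 15 min they were EEF1A1 (0.010), EEF1B2 (0.025) and TPT1 (0.00062) with total counts, and with each culture left out EEF1A1 (-0.18 to 0.036), EEF1B2 (-0.22 to 0.087), TPT1 (-0.30 to 0.13) and PABPC1 (-0.11 to 0.24). PABPC1 with total counts passed its test and is given above. The cause of these differences was not tested, except that leaving out a culture leaves 1 sample at that time, which is then assumed to vary like the others, and fewer residual degrees of freedom. At 5 bases either side of the start, 21.1% of all promoters and 87.5% of the matched genes held a tract.

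Same-numbered cultures deviated from their group means with correlations of -0.032 to 0.081 over 6 pairs of times, and the labels tie the numbers to no shared batch, so the numbers only name the cultures. Apart from GNB2L1 at 30 against 5 min, the replicate block changed no call of the 10 genes; at 5 min 2664 genes fell and 2928 rose with it. Counting error limits EEF1G most, with 35 to 166 counts per culture, and groups of 2 allow no test for an outlying culture.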
